A study of Mus musculus with 2 samples.

Results

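Natural killer (NK) cells of the mouse lung were examined in 1 single-cell RNA library labelled GFI1 KO and 1 labelled GFI1 WT. The cells were selected on their own RNA. A cell counted as an NK cell when it held UMIs (unique molecular identifiers, each standing for 1 captured transcript) of at least 4 of the 7 genes Ncr1, Klrb1c, Klra8, Klra4, Klre1, Prf1 and Gzma, and none of Cd3d, Cd3e, Ebf1, Csf1r, Mertk or Ptprb. This gave 2106 NK cells of 29837 cells that passed the quality limits, 213 of 10495 in the GFI1 KO library and 1893 of 19342 in the GFI1 WT library. Both libraries came from dissociated lungs of adult mice kept on the C57BL6/J background, sorted only for live cells. Going by its label and the study, the first carries a germline loss of GFI1, a transcriptional repressor of blood cell development. The other is labelled as its wild-type control, and no further allele or agent is in the labels. As there was 1 library per genotype, genotype, animal and library cannot be told apart, and each interval given covers counting error only. The members share their library, so cells were not used as replicates, and no test was possible. Of the deposited barcodes, 74 occurred in both libraries, and none of these was an NK cell in both.

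NK cells are innate lymphocytes that kill infected or transformed cells by releasing perforin and granzymes and that secrete interferon-γ. Killing is set by the balance of activating and inhibitory receptors, which in mice include the Ly49 family (Klra genes), NKG2 receptors (Klrc, Klrd1, Klrk1) and NK1.1 (Klrb1c). In mice, NK cells mature from CD27-high cells that proliferate readily to CD11b-high (Itgam), S1pr5-bearing cells that circulate, under the transcription factors Eomes, T-bet (Tbx21) and Zeb2. The lung holds many circulating, mature NK cells. The libraries were made to ask how cells with and without GFI1 differ in barrier tissue, and NK cells were compared here in abundance, maturation genes and expression over all genes.

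The targeted gene was examined first. Gfi1 had 38 UMIs in NK cells labelled GFI1 KO and 175 in those labelled GFI1 WT, which is 32.4 and 23.5 CPM (a gene's UMIs per 1000000 UMIs of the genes kept, summed over the NK cells of a library). The ratio was 1.38 with a 95% counting interval of 0.945 to 1.97. The level was thus not lower under the GFI1 KO label, and the interval held 1. In CD8 T cells Gfi1 had 18.6 and 11.5 CPM (1.62, 1.05 to 2.47) and in B cells 13.5 and 6.37 CPM (2.12, 1.41 to 3.13), higher under the GFI1 KO label in both. The reads come from the 3′ end of transcripts, and which part of the gene the allele lacks is not in the labels, so this is no check of the label, and groups are called here by their labels. The paralog Gfi1b had 0 UMIs in NK cells of both libraries. Among partners in repression, the intervals of 3 held 1, with a ratio of 1.23 (0.976 to 1.53) for the demethylase Kdm1a, 1.14 (0.952 to 1.36) for Hdac1 and 1.09 (0.772 to 1.5) for Hdac2. Rcor1, a further partner in repression, had 79.4 CPM in GFI1 KO and 119 CPM in GFI1 WT NK cells, a ratio of 0.668 (0.533 to 0.828).

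Few cells lay near the edge of the rule. Among cells with none of the excluded genes, 2 GFI1 KO cells and 26 GFI1 WT cells held 3 of the 7 markers and lay just outside the rule. Just inside it, 10 GFI1 KO cells and 100 GFI1 WT cells held exactly 4, and the other members held 5 to 7. The excluded genes removed 62 of 275 cells with at least 4 markers (22.5%) in GFI1 KO and 403 of 2296 (17.6%) in GFI1 WT. Csf1r was the most frequent of these genes in GFI1 KO, in 37 cells, and Ebf1 in GFI1 WT, in 128 cells. The label was checked against the protein tags, which the rule did not use. The NK1.1 tag had a median of 74 UMIs in GFI1 KO and 28 in GFI1 WT NK cells, against 1 and 2 in CD8 T cells. The CD335 (NKp46) tag had medians of 14 and 12, against 2 and 5 in CD8 T cells, while the CD8a tag stayed at 1 and 2 in NK cells.

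**Figure D1:**
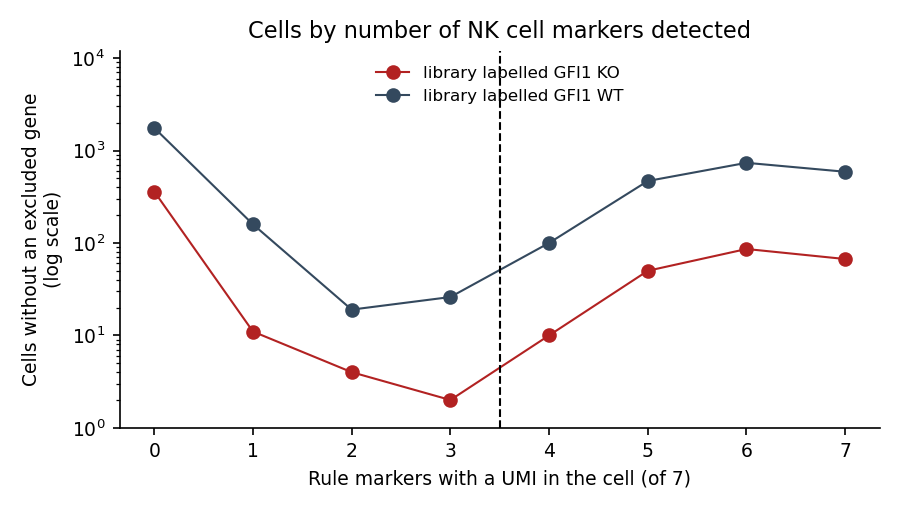
Number of cells (log scale) without an excluded gene by how many of the 7 NK cell markers had a UMI, in each library. The dashed line marks the rule; just outside it, at 3 markers, lay 2 GFI1 KO and 26 GFI1 WT cells, and just inside it 10 and 100.

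NK cells made up a smaller part of the GFI1 KO library. They were 2.03% of its cells (1.77 to 2.32) and 9.79% of GFI1 WT cells (9.37 to 10.2), a difference of -7.76 percentage points (-8.26 to -7.25). Among cells with a UMI of Ptprc, which encodes the pan-leukocyte CD45, the shares were 2.09% and 11.6%. Set against CD8 T cells of the same library, there were 55.0 NK cells per 100 CD8 T cells in GFI1 KO and 165 in GFI1 WT. Set against B cells, there were 23.3 per 100 in GFI1 KO and 61.9 in GFI1 WT. All 4 of these denominators therefore gave fewer NK cells under the GFI1 KO label. CD8 T cells (3.69% and 5.93% of all cells) and B cells (8.70% and 15.8%) also made up a smaller part of the GFI1 KO library. The rule on excluded genes also bears on this share. When Cd3g, Trac, Trdc, Cd79a, Lyz2 and S100a8 were excluded as well, 57 and 1072 NK cells were left. Of these genes Lyz2, which encodes the lysozyme of myeloid cells, was found in 131 GFI1 KO (61.5%) and 475 GFI1 WT (25.1%) NK cells, and in 46.3% and 27.5% of B cells. The part of free RNA in this was not tested.

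NK cells labelled GFI1 KO were read somewhat more deeply, with a median of 5672 UMIs and 2321 genes per cell against 4175 UMIs and 1981 genes in GFI1 WT. Depth ranged from 959 to 29151 UMIs in GFI1 KO and from 526 to 23217 in GFI1 WT. Levels were therefore compared as CPM, and shares of cells after each cell was thinned to 1500 UMIs. After ribosomal, mitochondrial and Gm- genes were set aside, the GFI1 KO cells held 1171606 UMIs and the GFI1 WT cells 7446591. Ribosomal genes took 17.5% of UMIs in GFI1 KO and 12% in GFI1 WT NK cells, against 20.7% and 19.0% in B cells.

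Genes that define NK cells were compared next. For the rule markers, given as a description because they chose the cells, the ratio of GFI1 KO to GFI1 WT ran from 0.745 for Klrb1c to 1.20 for Klre1. Gzma, a granzyme, had 9560 and 10270 CPM, and Prf1, which encodes perforin, had 1233 and 1455 CPM. Of the 18 other NK identity genes, 1 was past 2-fold higher, 1 past 2-fold lower and 16 neither. Nkg7, which encodes a granule protein, had 3115 and 2800 CPM, Klrd1 (CD94) had 871 and 848 CPM, and Eomes had 395 and 377 CPM. Under 2-fold apart were Cd244a (2B4), a SLAM family receptor, at 144 and 245 CPM (0.590, 0.501 to 0.691), Cd160, at 47.8 and 26.5 CPM (1.81, 1.32 to 2.44), and Tbx21 and Klrc1, which are described with their groups. The 2 genes past 2-fold were Cd7, at 306 against 129 CPM (ratio 2.37, 2.09 to 2.67), and Itga2 (CD49b), an integrin that marks circulating NK cells, at 570 against 1158 CPM (0.492, 0.454 to 0.533). Over all 10048 genes with at least 30 UMIs in the NK cells of both libraries together, 622 (6.19%) were past 2-fold higher and 794 (7.90%) past 2-fold lower under the GFI1 KO label. Without cells holding a Mki67 or Top2a UMI, 309 of 9635 genes were higher and 755 lower. Under median-of-ratios scaling, 742 of the 10048 were higher and 684 lower. The balance of the 2 directions thus depended on the cells kept and on scaling. The median log2 ratio over the 10048 genes was -0.07. The counts in this and the following lists are read against these shares, which include genes with few UMIs, and the 16 of 18 genes within 2-fold are near the share over all genes.

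Genes of late maturation were mostly lower under the GFI1 KO label. Of 12 such genes, all with at least 30 UMIs, 4 were past 2-fold lower, 1 past 2-fold higher and 7 neither, with a median log2 ratio of -0.73 and 11 of 12 below 1. Zeb2, a transcription factor that drives the last step of maturation, had 526 UMIs (449 CPM) in GFI1 KO and 7539 UMIs (1012 CPM) in GFI1 WT, a ratio of 0.443 (0.405 to 0.485). S1pr5, the sphingosine-1-phosphate receptor with which NK cells leave marrow and lymph nodes, had 40.1 and 97.8 CPM (0.410, 0.299 to 0.551). Ly6c2, a surface antigen of the Ly6 family, had 170 and 565 CPM (0.301, 0.259 to 0.347). Spn (CD43), a surface sialoprotein of mature cells, had 254 and 510 CPM (0.498, 0.441 to 0.561). These 4 genes are those past 2-fold lower, and for each the intervals of the 2 levels lay apart. Among NK cells with UMIs of fewer than 2 cell cycle genes, Zeb2 was no longer past 2-fold lower, with a ratio of 0.563 (0.513 to 0.618). Ly6c2 also marks monocytes, whose marker Lyz2 was higher under the GFI1 KO label in NK cells and in B cells alike. The part of free RNA in the level of Ly6c2 was not tested.

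Several further late genes were lower by less than 2-fold. Itgam, which encodes CD11b, had 214 CPM in GFI1 KO and 350 CPM in GFI1 WT (0.612, 0.535 to 0.697). The fractalkine receptor Cx3cr1 had 53.8 and 102 CPM (0.527, 0.401 to 0.682), and the repressor Prdm1 (Blimp-1) had 57.2 and 96.6 CPM (0.592, 0.454 to 0.762). The mast cell protease Cma1 had a ratio of 0.701 (0.618 to 0.791) and the transcription factor Irf8 one of 0.728 (0.691 to 0.765). Klrg1, an inhibitory receptor of mature cells, had 186 and 192 CPM (0.967, 0.835 to 1.12), and Gzmb 1032 and 1139 CPM. Lgals3, which encodes galectin-3, went the other way at 224 against 31.8 CPM (7.03, 5.87 to 8.41). B cells of the GFI1 KO library also held more Lgals3 than those of the GFI1 WT library, 97.4 against 48.5 CPM, and the part of free RNA in its level was not tested. Summed over the list, late genes took 4360 CPM in GFI1 KO and 6419 CPM in GFI1 WT, a log2 ratio of -0.56 (-0.60 to -0.52). In thinned cells the median was 5 late UMIs per GFI1 KO cell (quartiles 3 and 8) and 8 per GFI1 WT cell (quartiles 5 and 11).

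**Figure D2:**
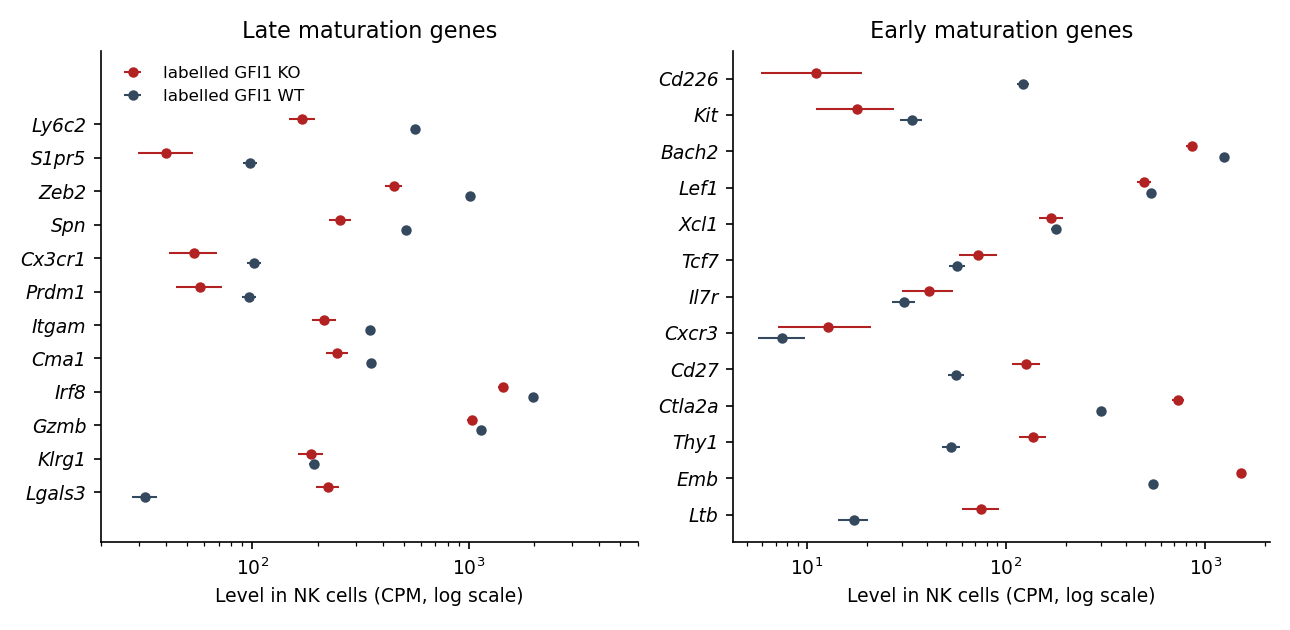
Summed level in NK cells (CPM, log scale) of the late and early maturation genes with at least 30 UMIs, ordered by ratio, for the library labelled GFI1 KO and the one labelled GFI1 WT; bars are 95% Poisson intervals, which cover counting error only. Zeb2 stands at 449 and 1012 CPM, and Cd27 at 126 and 56.1 CPM.

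Genes of early maturation differed in both directions. Of 13 measured genes of 14, 5 were past 2-fold higher, 1 past 2-fold lower and 7 neither, with a median log2 ratio of 0.41. The 5 higher genes were Cd27, Emb, Thy1, Ctla2a and Ltb. Cd27, a costimulatory receptor of the TNF receptor family, had 148 UMIs (126 CPM) in GFI1 KO and 418 UMIs (56.1 CPM) in GFI1 WT, a ratio of 2.25 (1.85 to 2.72). Emb, which encodes the glycoprotein embigin, had 1515 and 545 CPM (2.78, 2.63 to 2.94). A UMI of Emb was found in 64.9% of thinned GFI1 KO NK cells and 24.8% of GFI1 WT ones. Ctla2a, a cysteine protease inhibitor, had 731 and 300 CPM (2.44, 2.25 to 2.64). Ltb, which encodes lymphotoxin β, had 75.1 and 17.2 CPM, both under its level in B cells of the same libraries (591 and 392 CPM).

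Thy1, an early lymphoid surface protein, differed between NK cells in and out of the cell cycle. It had 137 and 53.0 CPM over all NK cells (2.57, 2.13 to 3.10). Among NK cells with UMIs of fewer than 2 cell cycle genes it had 62.6 and 51.3 CPM (1.22, 0.895 to 1.64), and among the rest 317 and 87.9 CPM (3.6, 2.41 to 5.53). The difference thus lay mostly among the cycling cells. For 5 genes the interval reached 1, with ratios of 1.28 (1.00 to 1.62) for the transcription factor Tcf7, 0.920 (0.841 to 1.00) for its relative Lef1, 1.33 (0.955 to 1.83) for the interleukin-7 receptor Il7r, 1.70 (0.894 to 3.05) for the chemokine receptor Cxcr3 and 0.952 (0.816 to 1.11) for the chemokine Xcl1. Il1r1, with 0 and 3 UMIs, was not measured. The receptor gene Kit had 17.9 and 33.6 CPM (0.534, 0.325 to 0.834). Cd226, the activating receptor DNAM-1, was the 1 gene past 2-fold lower, with 13 UMIs (11.1 CPM) in GFI1 KO and 906 UMIs (122 CPM) in GFI1 WT, a ratio of 0.0912 (0.0484 to 0.157). It had a UMI in 7 of 213 GFI1 KO cells and 469 of 1893 GFI1 WT cells. CD8 T cells held 135 CPM of Cd226 in GFI1 KO and 226 CPM in GFI1 WT. The early list summed to 4255 and 3176 CPM, a log2 ratio of 0.42 (0.38 to 0.47). Emb carried most of this difference, and without it the list summed to 2740 and 2631 CPM, a log2 ratio of 0.06 (0.00 to 0.11). The repressor Bach2 took 855 and 1243 CPM (0.688, 0.644 to 0.735), against 2572 and 2441 CPM in B cells.

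The sums of these 2 lists did not follow this order in CD8 T cells, while single genes went both ways. Late genes summed to 1874 CPM in GFI1 KO and 961 CPM in GFI1 WT CD8 T cells (ratio 1.95, 1.87 to 2.03), and early genes to 9900 and 11792 CPM (0.840, 0.826 to 0.853). The ratio in CD8 T cells was 0.954 for Zeb2, 0.966 for Cd27 and 0.921 for Emb. The other early genes past 2-fold higher in NK cells were also higher in CD8 T cells. They were Ctla2a (3.38, 3.09 to 3.70), Ltb (1.34, 1.25 to 1.45) and Thy1 (1.24, 1.14 to 1.34). Lgals3 (4.05, 3.51 to 4.67) was higher and Cd226 (0.600, 0.524 to 0.685) lower, as in NK cells. Spn was lower (0.768, 0.665 to 0.883), Ly6c2 higher (2.47, 2.32 to 2.63), and the intervals of Zeb2 and S1pr5 held 1. With 1 library a genotype, the difference between cell types was not tested.

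Shares of cells with Cd27 and Itgam RNA were compared at a matched depth. Of thinned NK cells, 208 in GFI1 KO and 1874 in GFI1 WT, Cd27 was found in 8.65% (5.21 to 13.3) and 4.80% (3.88 to 5.87), a difference of 3.85 points (0.245 to 8.62). This difference turned to -0.492 points (-4.09 to 8.78) with 6 further genes excluded, and its interval held 0 at 3.51 points (-0.0668 to 8.25) with cells of at least 3 markers and at 2.53 points (-1.14 to 7.76) without cells holding a Mki67 or Top2a UMI. Itgam was found in 22.6% (17.1 to 28.9) and 34.6% (32.5 to 36.8), a difference of -12.0 points (-18.0 to -5.38). In B cells the shares were 1.33% and 1.21% for Cd27 and 1.33% and 0.985% for Itgam, so those in NK cells lay above this background. Cells with Itgam alone were 21.2% of GFI1 KO and 33.6% of GFI1 WT NK cells, and cells with Cd27 alone 7.21% and 3.79%. Most cells, 70.2% and 61.6%, had a UMI of neither, so these classes describe detection and not the full Cd27 and CD11b phenotype. Without thinning, Cd27 was found in 36.2% and 12.8% and Itgam in 62.9% and 64.8%, the latter a difference of -1.91 points (-9.10 to 4.96).

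The protein tags did not follow the RNA in every respect. The CD11b tag had a median of 72 UMIs (quartiles 42 and 113) in GFI1 KO and 44 UMIs (27 and 69) in GFI1 WT NK cells, while CD8 T cells stood at 3 and 1. The KLRG1 tag had medians of 44 (13 and 92) and 19 (5 and 42). The CD45 tag, carried by all leukocytes, was itself higher in GFI1 KO NK cells, with medians of 948 and 601. Per 100 CD45 tag UMIs, the median cell carried 8.34 UMIs of CD11b in GFI1 KO and 7.82 in GFI1 WT, and 4.59 and 3.38 of KLRG1. Summed over cells, the values were 8.52 and 10.4 for CD11b and 6.53 and 4.35 for KLRG1. At a threshold of 20 UMIs, set after seeing the data, 63.4% of GFI1 KO and 47.0% of GFI1 WT NK cells carried both CD11b and KLRG1, and 6.10% and 13.3% neither. As a share of all tag UMIs, CD11b took 3.84% in GFI1 KO and 5.17% in GFI1 WT, and KLRG1 2.94% and 2.17%. CD11b was thus higher in GFI1 KO by the medians and lower by these sums relative to other tags. Its plain mean per cell was 86.4 UMIs in GFI1 KO and 66.1 in GFI1 WT, against medians of 72 and 44. KLRG1 was higher in GFI1 KO by each of these measures.

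RNA levels of maturation genes differed also among cells that carried the CD11b or KLRG1 protein. Among the 191 GFI1 KO and 1598 GFI1 WT NK cells with at least 20 CD11b tag UMIs, the ratio was 0.477 (0.435 to 0.523) for Zeb2, 0.633 (0.552 to 0.723) for Itgam and 3.11 (2.49 to 3.85) for Cd27. In the 22 and 295 cells below that threshold, Zeb2 had a ratio of 0.183 (0.118 to 0.273) and the late genes one of 0.649 (0.590 to 0.712), but Cd27 had 117 and 143 CPM (0.814, 0.484 to 1.30) and the summed early genes a ratio of 0.919 (0.848 to 0.995). The summed early genes were thus not higher in cells with little CD11b tag, where Emb had a ratio of 1.17 (1.01 to 1.34) and Thy1 one of 3.81 (2.61 to 5.52). Among the 144 and 933 cells with at least 20 KLRG1 tag UMIs, Cd27 had 133 and 22.1 CPM (6.04, 4.51 to 8.12) and Emb 1564 and 287 CPM (5.46, 5.03 to 5.92). In the 69 and 960 cells below that threshold, Cd27 had 111 and 93.5 CPM (1.19, 0.836 to 1.65) and Emb 1408 and 829 CPM (1.70, 1.54 to 1.87). In GFI1 WT, Cd27 and Emb were thus lower in KLRG1-bearing cells at this threshold, and in GFI1 KO they were not. The threshold took 67.6% of GFI1 KO and 49.3% of GFI1 WT NK cells, and the CD45 tag was also higher in GFI1 KO. KLRG1-bearing cells of the libraries may therefore not be matched, and this was not tested. In GFI1 WT the median KLRG1 tag was 5.5 UMIs in cells with a Cd27 UMI and 21 in those without, and in GFI1 KO 37 and 45.5.

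**Figure D3:**
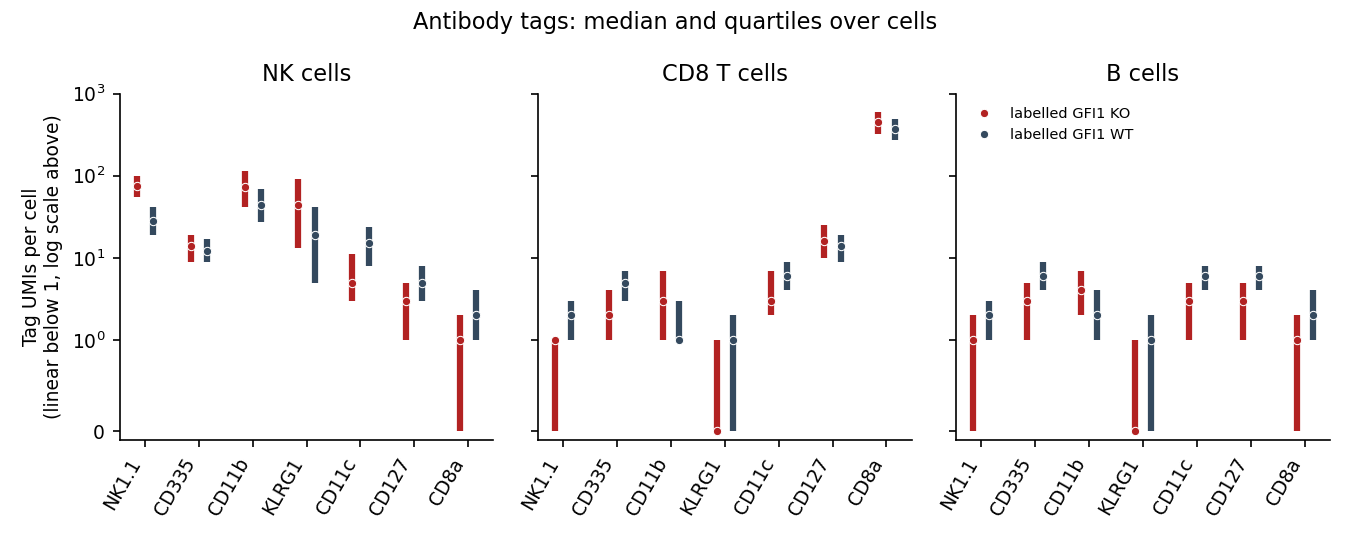
Median (point) and quartiles (bar) of antibody tag UMIs per cell, linear below 1 and on a log scale above, in NK, CD8 T and B cells of each library. NK cells stand out by NK1.1, CD335, CD11b and KLRG1, with CD11b medians of 72 and 44 and KLRG1 medians of 44 and 19.

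Transcription factors that govern NK cells were past 2-fold about as often as all genes. Of 20 measured genes, 2 were past 2-fold lower, against 7.90% of all genes, none past 2-fold higher and 18 neither. The median log2 ratio was -0.37, against -0.07 over all genes. Of the 20 ratios, 15 were below 1, and the share of all genes below 1 was not counted. Tbx21, which encodes T-bet, had 315 UMIs (269 CPM) in GFI1 KO and 3970 UMIs (533 CPM) in GFI1 WT, a ratio of 0.504 (0.448 to 0.566), while its relative Eomes had one of 1.05 (0.947 to 1.16). Id2, needed by all innate lymphoid lineages, had 691 and 964 CPM (0.716, 0.665 to 0.770), and Tox 229 and 373 CPM (0.613, 0.539 to 0.695). The genes past 2-fold lower were Zeb2 and Id3, which had 1 and 32 UMIs and an interval that held 1. Ikzf2 (Helios) had 106 and 63.7 CPM (1.66, 1.35 to 2.03). T-bet, Zeb2 and Id2 were all lower, and Eomes level within counting error. In CD8 T cells Tbx21 had a ratio of 1.71.

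The Ly49 receptors were uneven. Of 10 measured genes, 1 was past 2-fold higher, 4 past 2-fold lower and 5 neither. Klra9 (Ly49I) had 212 UMIs (181 CPM) in GFI1 KO and 4411 UMIs (592 CPM) in GFI1 WT, a ratio of 0.305 (0.265 to 0.351), and a UMI in 18.3% and 44.0% of thinned cells. Klra1 (Ly49A) had 46.1 and 135 CPM (0.343, 0.255 to 0.451), and Klra5 43.5 and 18.8 CPM (2.32, 1.65 to 3.21). Klra3 (Ly49C), Klra7 (Ly49G) and Klra4 (Ly49D) had ratios of 0.874, 0.877 and 0.920. The remaining genes past 2-fold lower, Klra2 and Klra6, had 2 and 7 UMIs in GFI1 KO and 30 and 93 in GFI1 WT, with intervals that held 1. Klra4 and Klra8 were among the genes that chose the cells. Of the other Ly49 genes, a thinned cell held a mean of 0.615 in GFI1 KO and 1.09 in GFI1 WT, and 48.1% and 23.1% of cells held none. Ly49 genes are close copies of each other, so the split of reads among them is uncertain.

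Of the 13 NKG2 and other lectin receptors, which include Klrb1c and Klre1 that chose the cells, 2 were past 2-fold lower and none past 2-fold higher. Klrb1b (Nkrp1d), an inhibitory receptor, had 264 and 536 CPM (0.492, 0.437 to 0.552), and Klri1 8.54 and 31.7 CPM (0.269, 0.127 to 0.504). The inhibitory Klrc1 (NKG2A) had 411 and 222 CPM (1.85, 1.67 to 2.05), the activating Klrk1 (NKG2D) 1088 and 827 CPM (1.32, 1.24 to 1.40), and Klrc2 317 and 355 CPM (0.892, 0.798 to 0.994). Adaptors that carry activating signals were level, with 2741 and 2582 CPM of Tyrobp (DAP12), 523 and 509 CPM of Hcst (DAP10) and 2086 and 2117 CPM of Fcer1g. Sh2d1b1 (EAT-2), which couples SLAM receptors in NK cells, was the 1 of 15 measured signalling genes past 2-fold, at 20.5 and 47.8 CPM (0.428, 0.271 to 0.648). Its relative Sh2d1a (SAP) had 210 and 115 CPM (1.82, 1.57 to 2.10).

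Cytotoxic genes were past 2-fold about as often as all genes. Of 19 measured granule and death ligand genes, 1 was past 2-fold higher, 1 past 2-fold lower and 17 neither, with a median log2 ratio of -0.14, and these include Prf1 and Gzma, which chose the cells. Gzmk, a granzyme with trypsin-like activity, had 91 UMIs (77.7 CPM) in GFI1 KO and 18 UMIs (2.42 CPM) in GFI1 WT, a ratio of 32.1 (19.2 to 56.6), in 39 of 213 and 18 of 1893 cells. In CD8 T cells it had 40.3 and 13.8 CPM. Serpinb9b, a serpin related to the granzyme B inhibitor Serpinb9, had 33.3 and 190 CPM (0.175, 0.124 to 0.240). Serpinb9 itself (1083 and 1262 CPM) and Fasl (294 and 365 CPM) were under 2-fold apart. Ifng, the signature cytokine of NK cells, had 213 and 104 CPM (2.04, 1.76 to 2.36), the chemokine gene Ccl4 573 and 1156 CPM (0.495, 0.457 to 0.536), Ccl3 143 and 240 CPM, and Ccl5 12713 and 16145 CPM. Interferon-γ and the Ccl chemokines, both products of activated NK cells, therefore lay on opposite sides of 1.

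Among 20 cytokine receptor and signalling genes, 2 were past 2-fold lower and 18 neither. Il21r had 11.1 and 67.3 CPM (0.165, 0.0872 to 0.285), and B cells held more of it at 225 and 199 CPM. Il15ra, which presents interleukin-15, had 4 UMIs in GFI1 KO and 80 in GFI1 WT. Il2rb, the β chain of the interleukin-15 receptor, had 1224 and 1521 CPM (0.805, 0.761 to 0.850). Il18rap had 718 and 1184 CPM (0.606, 0.564 to 0.651), while its partner chain Il18r1 had 768 and 622 CPM (1.24, 1.15 to 1.33). Of 18 homing genes, 5 were past 2-fold lower, namely S1pr5, Itga4, Itga2, Itga1 and Ccr7, and none past 2-fold higher. Itga4, the α4 integrin chain that binds VCAM-1, had 412 and 1175 CPM (0.351, 0.320 to 0.385), and in CD8 T cells a ratio of 0.402. The chemokine receptor Ccr2 had 388 and 285 CPM (1.36, 1.23 to 1.51).

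Genes of tissue-resident ILC1 summed to 402 and 437 CPM, most of it from Rora, a nuclear receptor of several lymphoid lineages, at 255 and 262 CPM (0.973, 0.858 to 1.1). Defining ILC1 genes were near or at 0. Itga1 (CD49a) had 3 and 86 UMIs, Cxcr6 0 and 22, and Zfp683 (Hobit) 0 in both libraries. Of 9 measured genes of this list, 4 were past 2-fold lower (Itga1, Cd200r1, Il21r and Ahr) and 1 past 2-fold higher, Cd69, with 89.6 and 32.1 CPM (2.79, 2.20 to 3.53). B cells held 286 and 211 CPM of Cd69. All 10 genes of MHC class I lay within 2-fold, 9 of them above 1, with 2997 and 2303 CPM of H2-K1 (1.30, 1.25 to 1.35) and 1209 and 682 CPM of H2-Q7 (1.77, 1.67 to 1.88). In B cells the summed list had a ratio of 1.21, and in NK cells of 1.27. Of 13 measured interferon response genes, 1 was past 2-fold higher, Irf7 at 108 and 48.6 CPM (2.23, 1.81 to 2.74), and 3 past 2-fold lower, Usp18, Oasl2 and Ly6a, each with at most 8 UMIs in GFI1 KO.

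Cell cycle genes were higher as a group under the GFI1 KO label. Of 16 genes, 15 were past 2-fold higher and none past 2-fold lower, against 6.19% of all genes, and the median log2 ratio was 2.70. Mki67, which encodes the Ki-67 antigen, had 278 UMIs (237 CPM) in GFI1 KO and 297 UMIs (39.9 CPM) in GFI1 WT, a ratio of 5.95 (5.03 to 7.03). Top2a, topoisomerase IIα, had 316 and 64.7 CPM (4.88, 4.25 to 5.60). Ube2c, the ubiquitin conjugating enzyme of the anaphase promoting complex, had 192 and 12.9 CPM (14.9, 11.7 to 19.1), and Ccnb1, cyclin B1, 35.8 and 1.88 CPM (19.1, 10.2 to 37.8). Hmgb2, also abundant outside the cycle, was the exception at 1590 and 811 CPM (1.96, 1.86 to 2.07).

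Hmgb2, Stmn1, Tubb5 and Tuba1b were found in 41.8% to 85.9% of GFI1 KO NK cells, and the 12 other genes in 7.04% to 16.0% of GFI1 KO and 0.370% to 5.97% of GFI1 WT NK cells. Of thinned NK cells, 9.13% in GFI1 KO (19 of 208, 5.59 to 13.9) and 1.12% in GFI1 WT (21 of 1874, 0.695 to 1.71) held UMIs of at least 2 of these 12, a difference of 8.01 points (4.42 to 12.8). The threshold was set after seeing the data, and 14 and 68 cells held exactly 1 such gene. Unthinned shares were 13.6% and 2.22%. For comparison, 4.91% and 1.66% of CD8 T cells and 0.554% and 0.952% of B cells passed. The summed cell cycle list had a ratio of 3.03 in NK cells, 1.58 in CD8 T cells and 0.855 in B cells. Among the NK cells that passed without thinning, 29 in GFI1 KO and 42 in GFI1 WT, late genes had a ratio of 0.716 and early genes of 1.30. Among the 184 and 1851 that did not, the ratios were 0.753 (0.729 to 0.777) and 1.43 (1.39 to 1.48), with Cd27 at 2.27 (1.82 to 2.82).

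**Figure D4:**
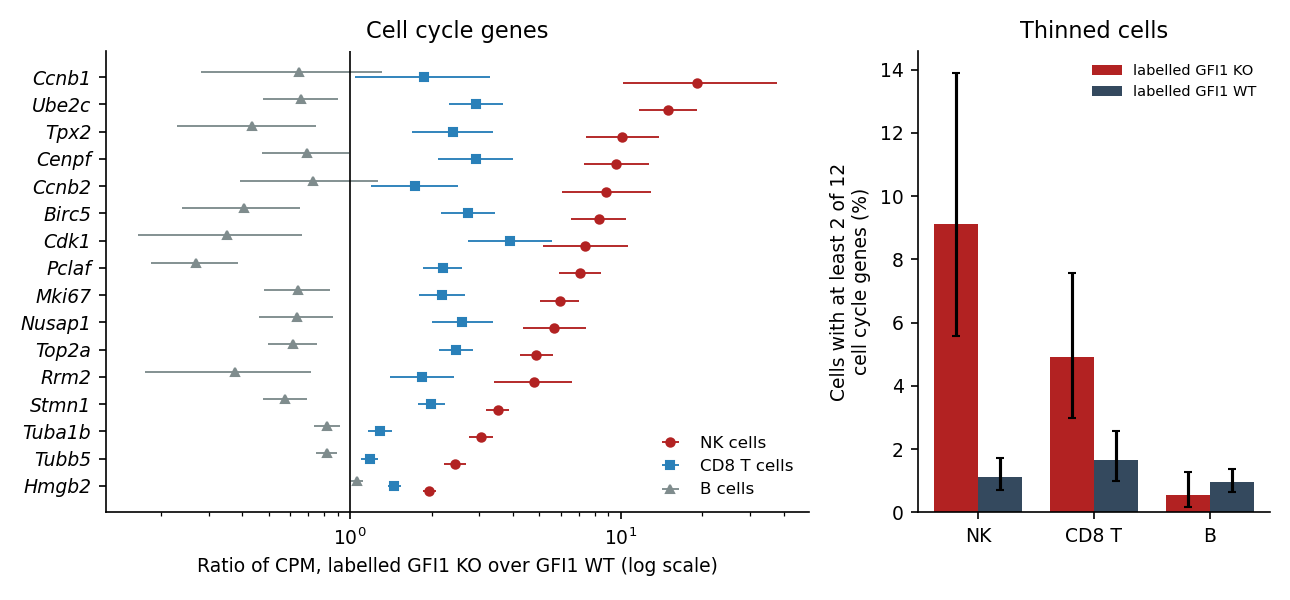
Left, ratio of CPM (GFI1 KO over GFI1 WT label, log scale) of each cell cycle gene in NK, CD8 T and B cells with 95% counting intervals. Right, percent of thinned cells with UMIs of at least 2 of 12 cell cycle genes, with Clopper-Pearson intervals: NK cells stand at 9.13% and 1.12%.

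Promoters of the 16 cell cycle genes, Hmgb2 included, were searched, after seeing the data, for short elements known from such genes. These were the CCAAT box bound by NF-Y and the cell cycle genes homology region, here as TTTGAA. In the 250 bases before the start in the RefSeq promoter table of build GRCm38.p6, used for sequence only because the counts were made on another build, 14 of the 16 genes were matched. CCAAT was present on either strand in 11 of these 14 and in 37.5% of all 27025 genes of the table, and TTTGAA in 6 of 14 and 18.3%. The windows of the 2 genes with the highest ratios among those matched follow, 5′ to 3′ on the gene's strand, Ccnb1 at chr13:100786487-100786736 on the minus strand and Ube2c at chr2:164769679-164769928 on the plus strand, and capitals mark each of the elements on either strand.
Ccnb1: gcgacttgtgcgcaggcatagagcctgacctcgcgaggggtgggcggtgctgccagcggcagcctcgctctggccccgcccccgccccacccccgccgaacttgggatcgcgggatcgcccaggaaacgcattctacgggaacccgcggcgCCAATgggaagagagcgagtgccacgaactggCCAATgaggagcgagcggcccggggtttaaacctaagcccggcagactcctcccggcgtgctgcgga
Ube2c: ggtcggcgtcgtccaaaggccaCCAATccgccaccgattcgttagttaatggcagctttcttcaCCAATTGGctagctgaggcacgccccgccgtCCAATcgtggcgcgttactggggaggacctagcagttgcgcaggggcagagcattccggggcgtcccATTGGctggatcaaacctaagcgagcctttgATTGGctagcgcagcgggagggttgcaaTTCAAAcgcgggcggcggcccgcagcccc
The Ccnb1 window held 2 CCAAT boxes and no TTTGAA, and the Ube2c window 6 CCAAT boxes, a pair of which overlap on opposite strands, and 1 TTTGAA. The list was fixed as one of cell cycle genes, so these shares describe the list and not the GFI1 KO label. A match is a run of letters and was not tested as a binding site.

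Beyond the lists, genes were ranked by the bound of the ratio nearer to 1, among those at least 2-fold above B cells of the same library. The 10 highest were Scart1, Ccr10, Cphx1, Ptpn5, Gzmk, Slit2, Dsp, Vcan, 2510009E07Rik and Ube2c. Scart1, a scavenger receptor gene of γδ T cells, had 69 UMIs (58.9 CPM) in GFI1 KO and 0 in GFI1 WT, at least 146-fold higher with 3 counts allowed in GFI1 WT. The UMIs came from 11 of 213 cells, 1 of which held 20. Of these 11 cells, 5 (45.5%) also held a UMI of the T cell receptor gene Trdc, against 31 of the 202 others (15.3%), and 10 held Ncr1. CD8 T cells had 542 and 16.7 CPM of Scart1. Ccr10, a homing receptor for skin and mucosa, had 43 and 0 UMIs, at least 91.1-fold higher, spread over 23 GFI1 KO cells. It too was higher in CD8 T cells, at 46.8 and 4.13 CPM.

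Of the rest of this group, Ube2c is a cell cycle gene described above, and the others had 1 to 30 UMIs in GFI1 WT NK cells. Ptpn5, a tyrosine phosphatase, had 70.8 and 1.48 CPM (48.0, 25.5 to 99.8) in 64 and 10 cells and at most 0.159 CPM in CD8 T and B cells of either library. Dsp, which encodes desmoplakin, had 44.4 and 1.88 CPM (23.6, 12.9 to 46.1) in 35 and 11 cells. Cphx1, a homeobox gene, had 38 UMIs and 1 UMI (242, 40.8 to 9788), and Slit2, a guidance factor, 36 and 5. The gene 2510009E07Rik had 73.4 and 4.03 CPM (18.2, 11.9 to 28.6). Vcan, a monocyte marker, had 32 and 7 UMIs, and 25 of the 32 lay in 1 cell. Of the 38 Cphx1 UMIs in GFI1 KO, 13 lay in 1 cell. Ptpn5, Dsp, Gzmk and Ccr10 were thus spread over 23 to 64 cells, and Vcan was not. The 29 GFI1 KO cells with UMIs of at least 2 cell cycle genes held 24 of the 43 Ccr10 UMIs and 40 of the 91 Gzmk UMIs. Among the other cells, Ccr10 had 19 and 0 UMIs and Gzmk a ratio of 25.6 (14.5 to 47.2).

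**Figure D5:**
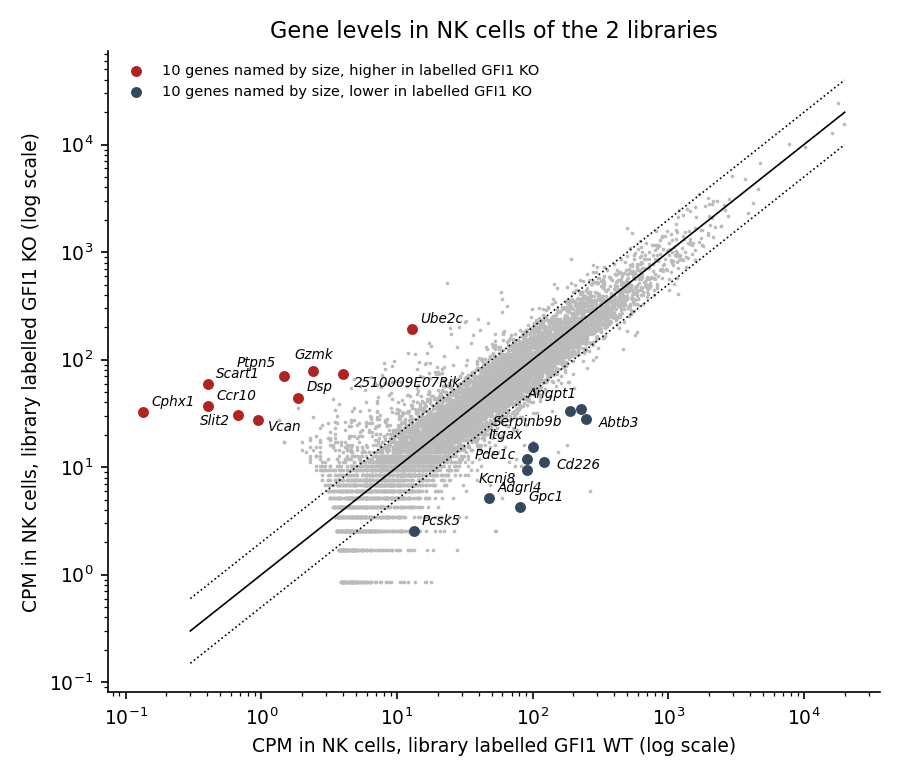
Level of each of 10048 genes in NK cells of both libraries (CPM, log scales); the solid line marks equality and the dotted lines 2-fold, and a gene with 0 UMIs is drawn at the level of 3 counts, above genes with 1 or 2. The 10 genes named in each direction are coloured, with Scart1 at 58.9 CPM and 0 UMIs and Gpc1 at 4.27 and 80.2 CPM.

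The 10 lowest genes by the same rule were Gpc1, Cd226, Abtb3, Kcnj8, Angpt1, Pde1c, Adgrl4, Serpinb9b, Pcsk5 and Itgax. Gpc1, a cell surface proteoglycan, had 5 UMIs (4.27 CPM) in GFI1 KO and 597 UMIs (80.2 CPM) in GFI1 WT, a ratio of 0.0532 (0.0172 to 0.125), in 4 of 213 and 471 of 1893 cells. Kcnj8, a potassium channel subunit, had 9.39 and 90.5 CPM (0.104, 0.0515 to 0.187) in 10 and 473 cells. Angpt1, the ligand of the receptor Tie2, had 35.0 and 227 CPM (0.154, 0.110 to 0.210), and Abtb3 28.2 and 248 CPM (0.114, 0.0780 to 0.160). Itgax, which encodes CD11c, had 15.4 and 101 CPM (0.152, 0.0894 to 0.241) in 16 and 494 cells. Its protein followed, with a median CD11c tag of 5 UMIs in GFI1 KO and 15 in GFI1 WT NK cells, and 1.08 and 3.63 per 100 CD45 tag UMIs. In CD8 T cells the CD11c tag stood at 3 and 6 and in B cells at 3 and 6, so the order of the tag was the same in cells that were not NK cells. The adhesion receptor Adgrl4 had 5.12 and 48.1 CPM and the phosphodiesterase Pde1c 11.9 and 90.5 CPM. The convertase Pcsk5 had 0 and 99 UMIs, 68 of them in 1 cell.

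Without the B cell condition, the 5 highest genes were those that also led with it, and the 5 lowest were S100a9, Ccl22, Ccl17, Hdc and Gpc1. S100a9, a neutrophil gene, had 5.97 and 265 CPM in NK cells and 15.2 and 230 CPM in B cells. Of the UMIs of Ccl22 (400) and Ccl17 (392) in GFI1 WT, 342 and 335 came from 1 cell each. Hdc, the histidine decarboxylase of basophils and neutrophils, had 0 and 197 UMIs and in B cells 3.03 and 34.4 CPM. The part of free RNA in these genes was not tested.

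Genes that the study names for γδ T cells were mostly near 0 in NK cells. Maf, a transcription factor of interleukin-17 producing T cells, had 147 UMIs (125 CPM) in GFI1 KO and 397 UMIs (53.3 CPM) in GFI1 WT, a ratio of 2.35 (1.93 to 2.85), and 39.1 and 25.9 CPM in B cells. Il17a had 1 and 0 UMIs, Blk 0 and 2, Sox13 0 and 2, Il22 0 and 1, Cxcr6 0 and 22, and Scart2 9 and 0. Trdc had 44.4 and 51.7 CPM (0.858, 0.630 to 1.15).

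Markers of other cells were counted over whole lists. Of 11 T cell markers, summed to 610 and 650 CPM in GFI1 KO and GFI1 WT NK cells, Trbc1 had the largest sum at 458 and 396 CPM, Cd4 had 0 UMIs and 1 UMI, and Cd8b1 0 and 9. B cell markers summed to 92.2 and 82.3 CPM, led by Ighm, with Cd79a at 0 and 18 UMIs. ILC2 markers summed to 76.0 and 91.9 CPM, led by Gata3, which NK cells also use, with Il13 at 0 in both. Neutrophil markers summed to 26.5 and 449 CPM, against 40.8 and 397 CPM in B cells, and epithelial markers to 17.9 and 196 CPM, nearly all Scgb1a1, against 50.2 and 2150 CPM in B cells. Both lists were lower in GFI1 KO in NK and in B cells. Monocyte markers summed to 809 and 955 CPM, led by Ccr2 and Ly6c2, which NK cells make, and with Lyz2 at 208 and 92.1 CPM against 231 and 102 CPM in B cells. Alveolar macrophage markers summed to 51.2 and 117 CPM, dendritic cell markers to 466 and 392 CPM, endothelial markers to 99.0 and 193 CPM, fibroblast markers to 0.854 and 9.13 CPM, and red cell and platelet markers to 5.12 and 6.71 CPM. Basophil and mast cell markers had 0 and 6 UMIs. Of 15 immediate early and dissociation genes, 3 were past 2-fold higher (Fos, Hspa1a and Hspa1b), and 1, Fosb, past 2-fold lower, with Fos at 236 and 116 CPM. The part of free RNA and of cell handling in the differences between NK cells was not tested.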

How the data were processed

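Live lung cells were profiled with the 10x Genomics 3′ chemistry. The authors deposited raw UMI counts per gene and per antibody tag, not normalized, for called cells of each library. Cell Ranger 9.0.1 and the build GRCm39 (mm39) are named in the submitters' processing notes. The gene annotation, doublet removal and any correction for free RNA are not given in the sources used here. The study's methods state more than 1 sample per genotype; the others were not analysed here. The features hold 33696 genes and 18 tags; what each tag was stained with is taken from its name.

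Cells needed at least 500 gene UMIs, at least 200 genes and at most 20% mitochondrial UMIs, the limits of the study's methods. As there, ribosomal, mitochondrial and Gm- genes (9538) were left out of levels, 20.9% of NK cell UMIs in GFI1 KO and 15.2% in GFI1 WT. UMIs were summed over the NK cells of a library. Levels have exact Poisson intervals, ratios exact conditional binomial ones and shares Clopper-Pearson ones (95%), and differences of shares combine bounds by the square-and-add method. A count of 0 was set to 3 counts for folds. Genes with at least 30 UMIs over both libraries were compared. For shares, each cell was thinned once to 1500 UMIs, leaving out 5 and 19 shallower NK cells. CD8 T cells had UMIs of Cd3d or Cd3e and of Cd8a or Cd8b1, with none of Cd4, Ebf1, Csf1r, Mertk or Ptprb. B cells had Ebf1 and Cd79a, with none of Cd3d, Cd3e, Csf1r, Mertk or Ptprb.

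Named genes were the rule markers, the maturation lists, Gfi1, Gfi1b, genes the study names, the 10 highest and 10 lowest by size, and from other lists those with most UMIs or past 2-fold. The members and lists were chosen with earlier results of these data known. The limits of 20 tag UMIs and 2 of 12 cell cycle genes, the subsets by tag and cycle and the promoter search were set after seeing the data. Alternatives were other marker numbers, exclusions, cell filters, scalings, UMI minimums and thinning depths. Some members of these lists are not reported here. Scrublet (scanpy 1.11.5) called 3.30% and 5.92% of cells doublets, of which 1 and 20 were NK cells, kept in the reported values. Python 3.11.15, numpy 2.4.6 and scipy 1.17.1 were used, and the scripts were tested on simulated data.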

Additional observations from a re-analysis of the deposited data

How the results depend on the processing

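None of the alternative settings turned the order of the NK cell share, of the late or of the early maturation genes. The cells with fewer than 20 CD11b tag UMIs were not among these alternatives. In them the summed early genes were lower under the GFI1 KO label, with a ratio of 0.919 (0.848 to 0.995). The share difference ran from -9.46 to -5.0 points over 9 alternatives; it was -9.46 with cells holding a Ptprc UMI as denominator and -5.0 with 6 further genes excluded. The latter setting kept 57 GFI1 KO cells and turned the difference in thinned cells with Cd27 to -0.492 points (-4.09 to 8.78), from 3.85; the fewer cells widen its interval. That difference was 9.71 points at 3000 UMIs per cell and 23.4 unthinned, and the one for Itgam was -1.91 unthinned. Without cells holding a Mki67 or Top2a UMI, 309 genes instead of 622 were past 2-fold higher, and the late genes stood at -0.39 (log2) instead of -0.56. Without cells over 20000 UMIs, which kept 206 of 213 GFI1 KO NK cells, 460 of 9999 genes were past 2-fold higher and 748 lower. With at least 100 UMIs per gene, 334 of 7962 genes were past 2-fold higher and 411 lower; with at least 10 UMIs, 904 and 978 of 11689. The late genes stood at -0.66 with CPM over all gene UMIs, -0.49 with median-of-ratios scaling and -0.44 with each cell weighted equally. The early genes, 0.42 as reported, stood at 0.32, 0.49 and 0.47 under these settings, at 0.51 with the rule on thinned cells, at 0.47 without cells over 20000 UMIs and at 0.53 in cells with at least 20 CD11b tag UMIs, an alternative chosen after seeing the data. Without the gene with the largest difference, also chosen after seeing the data, the late genes stood at -0.47 (without Zeb2) and the early genes at 0.06 (without Emb), so Emb carried most of the early difference. Scaling moved the split of higher against lower genes from 622 and 794 to 502 and 975 (all gene UMIs) or 742 and 684 (median of ratios). The cause of these shifts was not tested. No paired analysis was possible because there was 1 library per genotype, and no replicate could be left out. With 38 Gfi1 UMIs in GFI1 KO NK cells, a smaller difference in Gfi1 was not detectable at this depth.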

Other observations

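A tag named PE_Streptavidin2, whose target the labels do not give, had a median of 334 UMIs in GFI1 KO and 200 in GFI1 WT NK cells, against 17 and 26 in CD8 T cells and 16 and 27 in B cells. The CD45R (B220) tag was at 20 UMIs or more in 25.4% of GFI1 KO and 7.61% of GFI1 WT NK cells. The tags of CD127 (medians 3 and 5) and CD117 (2 and 5) were near the isotype control RTK2758 (1 and 2) in NK cells.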
